A study of Arabidopsis thaliana with 6 samples.

Results

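The DNA replication and E2F pathway was examined as 42 Arabidopsis thaliana genes, named by locus identifier, out of 17675 genes in the deposited table. All 42 were listed there. They encode the origin recognition and licensing proteins, the MCM helicase and its partners, the replicative DNA polymerases, the sliding clamp and lagging-strand enzymes, ribonucleotide reductase, the E2F, DP and RBR regulators, and the CAF-1 histone chaperone. The rule that picks them uses gene identity and no measured value, but the list was chosen with earlier results of these data known. The study asked how AUXIN RESPONSE FACTOR3 (ARF3), a transcription factor that acts in auxin response, works in the determinacy of the floral meristem.

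RNA-seq was carried out on 3 libraries of plants given 10 µM dexamethasone (DEX) in DMSO and on 3 libraries of plants given DMSO alone, both with 0.015% Silwet L-77 as a wetting agent. Every plant, in both groups, carried the arf3-29 mutation and the ARF3:ARF3-GR transgene, in which ARF3 is fused to the steroid-binding domain of the glucocorticoid receptor (GR) and driven by the ARF3 promoter. GR keeps a fused protein out of the nucleus until a steroid is supplied, so DEX is the switch that activates ARF3-GR. The 3-week-old plants grew at 23 °C in days of 16 h light and 8 h dark, and their inflorescences were dissected so that flowers of stage 7 or older were removed. No library of plants without ARF3-GR was analysed here, so an effect of DEX itself and an effect of ARF3-GR cannot be told apart. How long after treatment the tissue was taken, how many plants made up a library and whether the libraries came from separate plants is not stated in the sources used here, and the p-values therefore measure only the spread between these libraries, which may be technical.

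In every dividing plant cell, origins are marked by the origin recognition complex and licensed when CDC6 and CDT1 load the MCM helicase, after which polymerases, the PCNA clamp and a supply of deoxynucleotides carry out synthesis. Many genes for these proteins are targets of E2F factors, which bind DNA together with a DP partner. The retinoblastoma-related protein RBR binds E2F and holds its targets down until cyclin-dependent kinases phosphorylate RBR. In Arabidopsis, E2FA and E2FB are generally described as activators and E2FC as a repressor. Young flowers are rich in dividing cells, in which these genes are used.

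The levels below are reads per 1000000 reads (RPM) over the listed genes. Recovered reads per library were 10703769, 14469527 and 14290693 for DEX-1, DEX-2 and DEX-3 and 12437315, 13645763 and 12655222 for DMSO-1, DMSO-2 and DMSO-3, so that 1 read was worth 0.0691 to 0.0934 RPM. DEX-3 stood somewhat apart from the other DEX libraries, with Spearman correlations across genes of 0.985 and 0.987 to them, where DEX-1 and DEX-2 had 0.991. By a chi-square test of the reads, DEX-3 differed from them by 10.5 and 12.0 per degree of freedom, where the other pairs within a group had 2.80 to 4.33. Of 7 young flower markers (LFY, AP1, STM, FIL, PI, AP3 and SEP3) all 7 were detected in every library, with summed levels of 1094 to 1245 RPM in DEX libraries and 1173 to 1262 RPM in DMSO libraries. STM, FIL and AP3 passed the test as lower, and PI and SEP3 passed as higher, where 28.1% of all listed genes were lower and 29.6% higher. Changes are log2 fold changes of DEX over DMSO on the log2(RPM + 1) scale, where changes of weak genes come out too small, and tests are limma's with p-values adjusted by Benjamini-Hochberg across the 17675 genes, called at 0.05.

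DEX libraries held less RNA of most of the replication machinery. Of the 42 members, 34 fell (limma, adjusted p under 0.05), against a background in which 28.1% of all listed genes were lower and 57.7% passed in either direction. No member rose: the count of members higher was 0 with limma, 0 at an unadjusted p under 0.05, and 0 with edgeR and with DESeq2 on the recovered reads, where 29.6% of all genes were higher. The other 8 members, ORC1A, ORC5, RFC1, RNR2A, E2FB, DPA, DPB and FAS2, did not pass the test. A fall of at least 1 on the log2 scale was found in 28 members, against 5.23% of all genes. The median log2 fold change of the members was -1.34, with a range of -2.41 for PCNA1 to 0.01 for RNR2A, and the median over all genes was 0.0035. Without DEX-3 the median was -1.34 and 35 members fell.

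The summed level of the 42 genes was 524 to 532 RPM in the DEX libraries and 1489 to 1533 RPM in the DMSO libraries. All 3 DEX values lay below all 3 DMSO values for 34 members, against 30.7% of all genes, and for no member did all 3 lie above, against 32.1% of all genes. Relative to the DMSO mean, the median member stood at a log2 difference of -1.23 in DEX-1, -1.42 in DEX-2 and -1.28 in DEX-3, so the members were low in each DEX library and not in 1 of them. Each DEX library held the lowest DEX value of 14 members. As a measure of sampling, 37 members had at least 1 RPM in all 6 libraries, and the exceptions were ORC1A, ORC1B, CDC6, CDC6B and POLE1. A gene is in the table if it has at least 1 RPM in 3 libraries, and CDC6B met this through the DMSO libraries alone, which favours a gene that differs. CDC6 and ORC1A reached 1 RPM in 1 DEX library each, and ORC1B and POLE1 in 2, so they also met it partly through the DMSO libraries. In whole inflorescence tissue, fewer cells in S phase and less RNA of these genes per cell cannot be told apart.

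**Figure D1:**
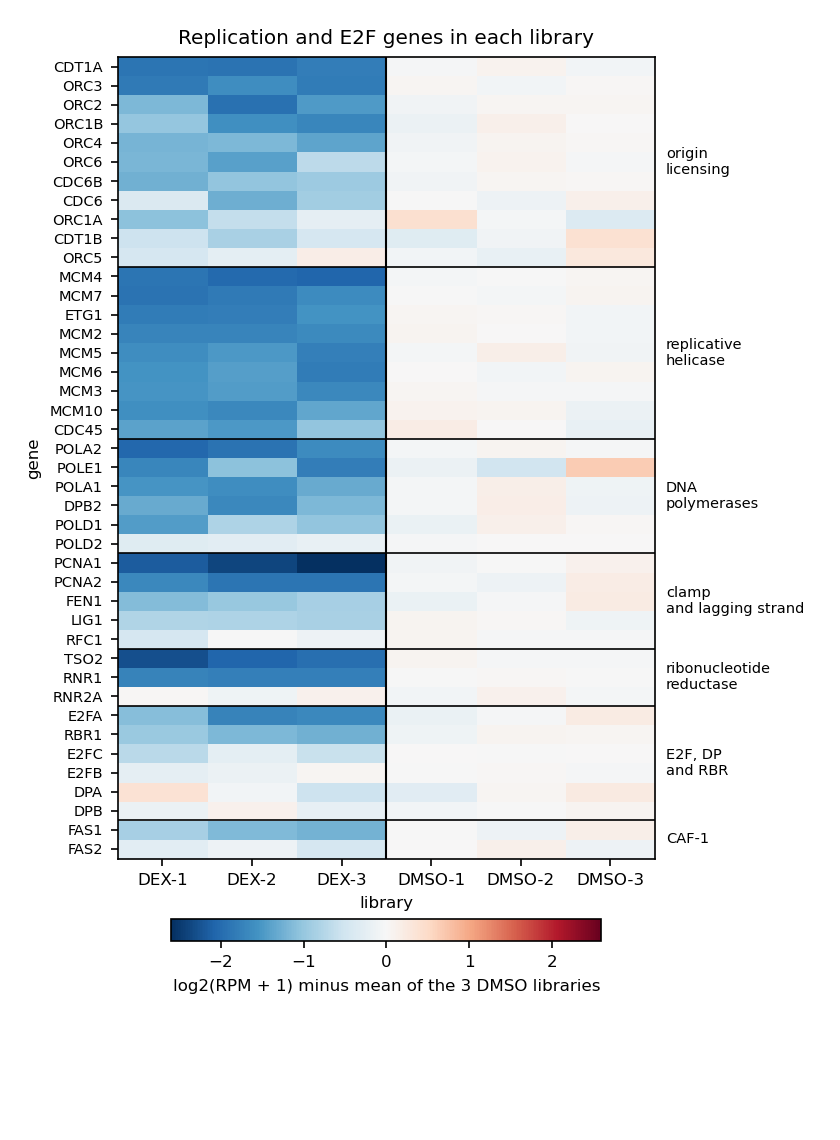
Heat map of the 42 genes (rows, grouped by role) in the 3 DEX and 3 DMSO libraries (columns). Colour gives log2(RPM + 1) minus the mean of the 3 DMSO libraries, blue for lower and red for higher. The DEX columns are blue in nearly every row, and the rows of ORC5, RFC1, RNR2A, E2FB, DPA and DPB stay near white, the colour of the DMSO mean.

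Markers of other tissues differed between the groups as well, in a comparison where 29.6% of all listed genes were higher and 28.1% lower. Of 6 tapetum and pollen markers 5 were measured, and VGD1 was not analysed here. All 5 (A9, MS2, ATA7, CYP703A2 and ACOS5) were higher in DEX libraries. Their summed levels were 19.7 to 24.9 RPM in DEX libraries and 4.42 to 6.24 RPM in DMSO libraries. MS2 and CYP703A2 were listed at 0 in all 3 DMSO libraries. MS2, ATA7 and CYP703A2 reached 1 RPM in no DMSO library and are listed through the DEX libraries alone, so that they had to be higher, and the count of 5 is a description only. Of 4 green tissue markers 3 were higher (RBCS1A, CAB2 and LHCA1) and RBCS2B was lower, with sums of 6790 to 7404 RPM in DEX libraries and 5465 to 5714 RPM in DMSO libraries. Of 3 phloem markers, SUC2 and APL were higher and SEOR2 was lower, with sums of 74.9 to 76.6 RPM in DEX libraries and 69.9 to 71.6 RPM in DMSO libraries. These markers differed in the same comparison as the replication genes, and their part in the fall was not tested.

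The promoters of the members were searched for the E2F site, because many replication genes are known targets of E2F. The window ran from 250 bases before to 50 bases after the gene start in the RefSeq annotation of TAIR10.1, the letters were TTTCCCGC, TTTGCCGC, TTTGGCGC and TTTCGCGC on both strands, and no pair of matches in the stretches shown overlaps. At least 1 match was found in 18 of 42 members (42.9%), in 336 of 17367 listed genes with a window (1.94%) and in 483 of 27438 protein-coding genes (1.76%). By role, matches were found in 5 of 9 helicase genes, 5 of 11 licensing genes, 3 of 6 polymerase genes, both CAF-1 genes, 1 of 5 clamp and lagging-strand genes, 1 of 3 ribonucleotide reductase genes and, of 6 genes in the regulator group, RBR1. Of the 18 members with a match 16 fell, with a median log2 fold change of -1.51, and of the 24 without 18 fell, with a median of -1.09. Among listed genes that are no members, 132 of 318 with a match were lower (41.5%, median -0.22), and 4759 of 17007 without a match were lower (28%, median 0.0076). A match describes the letters in the window and is no evidence of a bound site.

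The stretches below are shown because they belong to genes of the helicase, of polymerase alpha and of RBR, and to the CDT1 and CAF-1 pairs, whose ratios are described further on. Each is given 5′ to 3′ on the strand of its gene, lies upstream of the gene start, and has the match in capitals. In CDT1A and CDT1B the capitals mark the shorter core TTCCCGC, in its reverse complement, since neither holds a full spelling. TTTCCCGC contains that core, which alone was found in 21 of 42 members (50%) and in 1.67% of listed genes.
MCM2: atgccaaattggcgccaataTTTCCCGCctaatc
MCM3: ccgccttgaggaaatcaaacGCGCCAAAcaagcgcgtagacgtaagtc
MCM4: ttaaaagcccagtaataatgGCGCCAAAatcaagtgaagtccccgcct
MCM5: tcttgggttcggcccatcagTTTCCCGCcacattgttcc
MCM6: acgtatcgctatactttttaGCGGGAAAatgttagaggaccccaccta
POLA1: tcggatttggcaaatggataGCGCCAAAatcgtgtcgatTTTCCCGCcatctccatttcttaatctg
RBR1: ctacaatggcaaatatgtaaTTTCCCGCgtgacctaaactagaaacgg
FAS1: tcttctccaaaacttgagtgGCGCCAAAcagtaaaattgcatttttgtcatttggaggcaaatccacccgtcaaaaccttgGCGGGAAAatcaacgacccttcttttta
FAS2: atttgacacggagactactaTTTCGCGCcc
CDT1A: cttcgtagataagtgttttcGCGGGAA
CDT1B: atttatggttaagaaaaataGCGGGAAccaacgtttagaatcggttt

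In TAIR10.1 the MCM stretches lie at chr1:16970180-16970213 (plus strand) for MCM2, chr5:18773849-18773896 (minus strand) for MCM3, chr2:7130737-7130784 (minus strand) for MCM4, chr2:3527501-3527539 (minus strand) for MCM5 and chr5:18010686-18010733 (minus strand) for MCM6. The POLA1 stretch, at chr5:26776863-26776929 (plus strand), holds 2 matches on opposite strands, and the RBR1 stretch lies at chr3:3919408-3919455 (minus strand). The FAS1 stretch, at chr1:24324131-24324239 (minus strand), also holds 2 matches. The FAS2 stretch, at chr5:25833135-25833164 (plus strand), holds 1 match, of another spelling. The CDT1A stretch lies at chr2:13328835-13328861 (plus strand) and the CDT1B stretch at chr3:20251685-20251731 (plus strand). The strands given here are those of the genes. Of the full spellings shown, the match nearest the start was that of FAS2, whose first base lies at -10, and the farthest was that of MCM3, at -170. Windows of the helicase genes MCM7, MCM10, CDC45 and ETG1 held none of the 4 spellings. The same was true of TSO2, PCNA1, E2FA and ORC1B, among others, and all of these genes fell. The window of PCNA1 did hold the shorter core, and spellings other than the 4 and this core were not searched. The members with a match that did not pass the test were ORC1A and FAS2.

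Origin licensing held both large falls and genes that did not pass. Of its 11 members 9 fell, with a median log2 fold change of -1.09, where 28.1% of all listed genes were lower. That share is the background for the counts of the other roles as well. CDT1A (AT2G31270), which brings the MCM helicase to origins, had 5.79, 5.74 and 6.37 RPM in DEX-1, DEX-2 and DEX-3, against 24.0, 26.3 and 23.1 RPM in DMSO-1, DMSO-2 and DMSO-3 (log2 fold change -1.87, SE 0.13, adjusted p = 2.11e-09, limma). The DEX libraries lay close together and far below the DMSO libraries. ORC3 (AT5G16690), a subunit of the origin recognition complex, had 2.71, 3.39 and 2.80 RPM with DEX and 12.9, 11.7 and 12.6 RPM with DMSO (-1.76, adjusted p = 8.21e-08, limma). ORC2 (AT2G37560), another subunit, had 3.92, 1.87 and 2.94 RPM with DEX and 9.25, 10.3 and 10.4 RPM with DMSO (-1.53, adjusted p = 4.78e-06, limma). Neither gene's groups overlapped, and DEX-2 was the lowest library for ORC2. ORC4 and ORC6 fell by 1.25 and 1.09 on the log2 scale.

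ORC5 (AT4G29910) stood out within the same complex, with 7.19, 8.29 and 11.5 RPM in DEX libraries and 9.49, 8.65 and 12.4 RPM in DMSO libraries (-0.17, 95% interval -0.55 to 0.21, adjusted p = 0.434, limma). Its groups overlapped, DEX-3 lying above 2 of the DMSO libraries. Arabidopsis has a pair of ORC1 genes, the large subunit that binds the origin. ORC1B (AT4G12620) had 2.06, 1.04 and 0.910 RPM with DEX and 4.58, 5.79 and 5.21 RPM with DMSO (-1.44, adjusted p = 3.04e-05, limma), with no overlap. ORC1A (AT4G14700) had 0.187, 0.622 and 1.12 RPM with DEX and 2.33, 1.39 and 0.948 RPM with DMSO (-0.64, adjusted p = 0.0570, limma). With CDC6B, this gene had the lowest levels of the members, and its groups overlapped because DEX-3 lay above DMSO-3. It passed the test without DEX-3 (-0.85, adjusted p = 0.0129, limma) and without DMSO-3 (-0.82, adjusted p = 0.0383, limma). The coding sequences of ORC1A and ORC1B are 91.8% identical, with a longest shared run of 71 bases, so how reads were divided between them is uncertain. ORC1A also shares 919 exon bases, summed over its neighbours, with genes on the opposite strand. Part of its reads may belong to these if strand was not used in counting.

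CDC6 (AT2G29680) and CDC6B (AT1G07270) encode the loader that works with CDT1. CDC6 had 1.77, 0.484 and 0.910 RPM with DEX and 2.57, 2.27 and 2.92 RPM with DMSO (-0.85, adjusted p = 0.00773, limma). The DEX values were uneven, with DEX-1 the highest, and none reached the DMSO values. CDC6B had 0.0934, 0.276 and 0.350 RPM with DEX, as few as 1 read in DEX-1, and 1.45, 1.69 and 1.66 RPM with DMSO (-1.07, adjusted p = 9.49e-04, limma). The DEX values are near the level of 3 reads, 0.207 to 0.280 RPM, so the size of its change depends on the pseudocount. Its log2 fold changes were -2.69 to -0.33 over all settings, and no ratio of its DEX to its DMSO level is given. The coding sequences of this pair are 80.3% identical with a longest shared run of 54 bases. CDT1B (AT3G54710), the second CDT1 gene, had 5.23, 4.01 and 5.67 RPM with DEX and 6.27, 7.40 and 10.9 RPM with DMSO (-0.60, adjusted p = 0.0159, limma). The groups did not overlap, but DMSO-3 was high, and without it the change was -0.40 and did not pass (adjusted p = 0.115, limma), nor did it pass without DEX-2 (-0.48, adjusted p = 0.0743, limma).

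The genes of the replicative helicase all fell, and by similar amounts. The log2 fold changes of its 9 members ran from -1.99 for MCM4 to -1.30 for CDC45, with a median of -1.63. MCM4 (AT2G16440), a subunit of the ring that unwinds the DNA, had 18.3, 16.9 and 16.4 RPM in DEX-1, DEX-2 and DEX-3, against 69.1, 70.9 and 74.4 RPM in DMSO-1, DMSO-2 and DMSO-3 (log2 fold change -1.99, SE 0.092, adjusted p = 6.37e-12, limma). MCM7 (AT4G02060), another ring subunit, had 23.1, 24.4 and 28.3 RPM with DEX and 89.1, 86.2 and 94.1 RPM with DMSO (-1.79, adjusted p = 2.71e-11, limma). ETG1 (AT2G40550), an MCM-binding protein whose name stands for E2F TARGET GENE, had 13.4, 13.4 and 16.1 RPM with DEX and 51.5, 50.2 and 46.7 RPM with DMSO (-1.73, adjusted p = 3.53e-10, limma). In none of these did a DEX library come near a DMSO library, and the DEX libraries differed from one another by less than the distance between the groups.

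The 6 ring subunits MCM2 to MCM7 were left with 24.1% to 32.4% of their mean DMSO level, MCM4 the least and MCM3 the most. MCM2, MCM3, MCM5 and MCM6 fell by 1.70, 1.55, 1.63 and 1.60 on the log2 scale. MCM10 and CDC45, which help to turn the loaded ring into a moving helicase, fell by 1.54 and 1.30. The levels per length of the ring subunits were less alike than their changes. Per kb of exon, mean levels were 9.53 RPM with DEX and 33.9 RPM with DMSO for MCM7 and 3.01 RPM with DEX and 9.78 RPM with DMSO for MCM6, the highest and lowest of the ring, so the subunits kept unequal levels while falling by like factors. Leaving out any 1 library ended the call of no helicase gene.

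**Figure D2:**
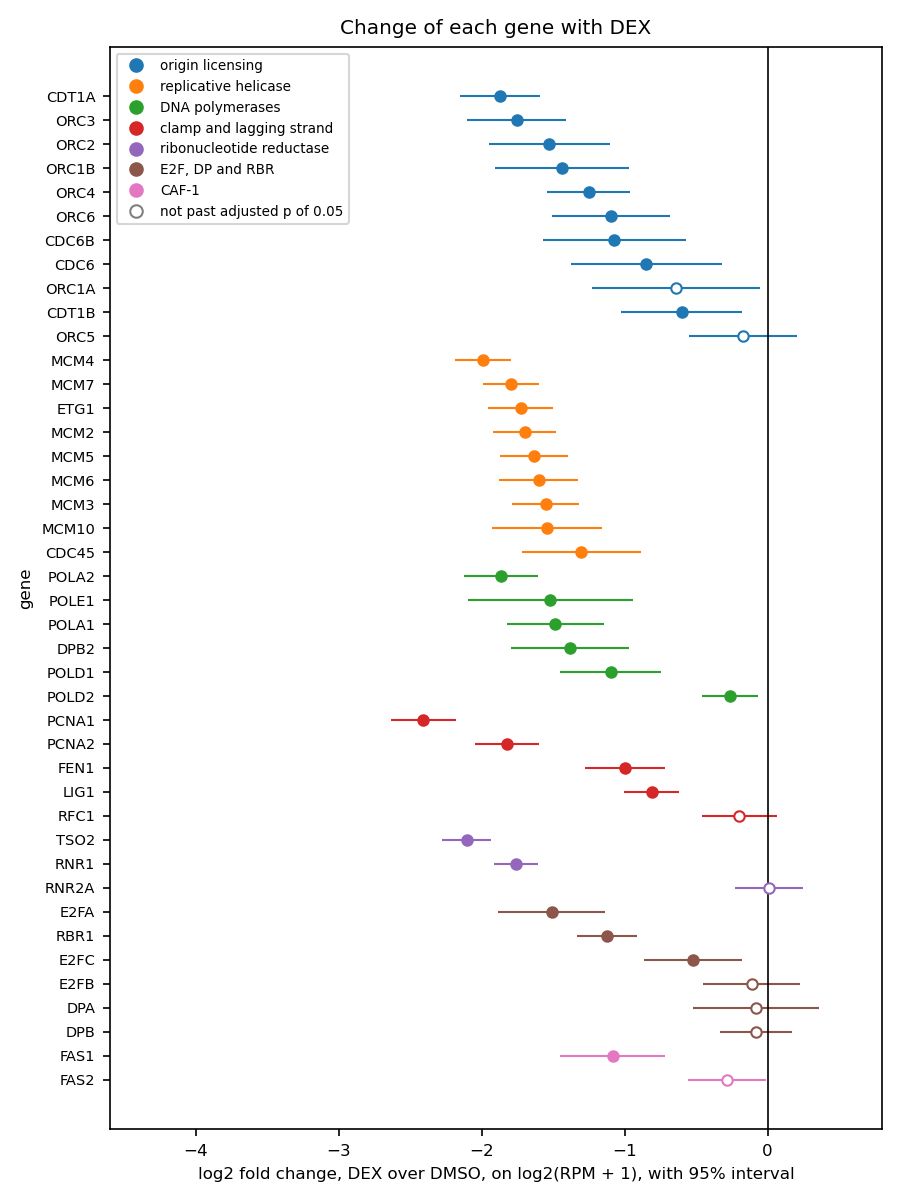
Log2 fold change of DEX over DMSO on log2(RPM + 1) for each of the 42 genes, with 95% intervals from limma, coloured by role. Filled points passed an adjusted p of 0.05 and open points did not. The 9 helicase genes lie between -1.99 and -1.30, while the regulator group reaches from -1.51 for E2FA to -0.08 for DPB.

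All 6 DNA polymerase genes fell, with a median of -1.43. POLA2 (AT1G67630), the B subunit of the primase-bound polymerase alpha, had 9.53, 10.4 and 13.0 RPM with DEX and 40.7, 44.8 and 41.7 RPM with DMSO (-1.86, SE 0.12, adjusted p = 7.11e-10, limma). The catalytic subunit POLA1 (AT5G67100) had 4.30, 4.01 and 5.18 RPM with DEX and 13.8, 16.1 and 13.2 RPM with DMSO (-1.48, adjusted p = 4.45e-07, limma). For POLE1 (AT1G08260), the catalytic subunit of the leading-strand polymerase epsilon, the libraries held 1.12, 2.28 and 0.980 RPM with DEX and 5.15, 3.88 and 9.80 RPM with DMSO (-1.52, adjusted p = 1.48e-04, limma). Groups did not overlap in any of the 3, but POLE1 was uneven, with DEX-2 above the other DEX libraries and DMSO-3 above the other DMSO libraries. POLE1 and POLA1 share exon bases with neighbours on the opposite strand, 2151 and 870 bases, and since the use of strand in counting is not given, part of those reads may belong to the neighbours.

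DPB2, the B subunit of polymerase epsilon, fell by 1.38 on the log2 scale, and POLD1, the catalytic subunit of the lagging-strand polymerase delta, fell by 1.10. The partner of POLD1 changed far less. POLD2 (AT2G42120), the B subunit of polymerase delta, had 27.6, 28.1 and 29.7 RPM with DEX and 33.8, 34.8 and 34.5 RPM with DMSO (-0.26, adjusted p = 0.0233, limma). Its groups did not overlap, yet the call was lost without DEX-1, DEX-2, DMSO-2 or DMSO-3, with log2 fold changes of -0.26 to -0.24 and adjusted p-values of 0.0573 to 0.0692 (limma).

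Among the clamp and lagging-strand genes 4 of 5 fell, with a median of -0.997. PCNA1 (AT1G07370), the sliding clamp that tethers polymerases to DNA, had 31.8, 27.2 and 21.9 RPM in DEX-1, DEX-2 and DEX-3, against 137, 144 and 157 RPM in DMSO-1, DMSO-2 and DMSO-3, which left 18.5% of the DMSO mean (log2 fold change -2.41, SE 0.11, adjusted p = 4.24e-12, limma). This was the largest change among the 42 on this scale. PCNA2 (AT2G29570), the second clamp gene, had 23.5, 19.8 and 19.9 RPM with DEX and 74.0, 69.7 and 88.1 RPM with DMSO (-1.82, adjusted p = 1.24e-10, limma). The level of PCNA1 was above that of PCNA2 in every library, but the 2 genes were closer in DEX libraries. Their coding sequences are 85.6% identical with a longest shared run of 41 bases. PCNA2 shares 279 exon bases with a neighbour on the opposite strand, to which part of its reads may belong if strand was not used in counting.

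FEN1 (AT5G26680), the flap nuclease that trims Okazaki fragments, had 10.7, 12.0 and 13.2 RPM with DEX and 21.8, 24.2 and 29.0 RPM with DMSO (-0.997, adjusted p = 5.72e-06, limma), without overlap. LIG1, the ligase that joins those fragments, fell by 0.81 on the log2 scale. RFC1 (AT5G22010), the large subunit of the complex that loads PCNA, had 16.7, 23.0 and 20.9 RPM with DEX and 24.4, 22.5 and 22.4 RPM with DMSO (-0.20, 95% interval -0.46 to 0.07, adjusted p = 0.186, limma). Its DEX-2 value lay among the DMSO values.

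Ribonucleotide reductase makes deoxynucleotides from ribonucleotides and is built of large and small subunits. The large subunit RNR1 (AT2G21790) had 39.4, 38.4 and 38.6 RPM with DEX and 133, 136 and 133 RPM with DMSO (-1.76, SE 0.073, adjusted p = 1.31e-12, limma), with very little spread within a group. TSO2 (AT3G27060), a small subunit, had 54.8, 65.0 and 68.9 RPM with DEX and 285, 267 and 266 RPM with DMSO (-2.11, SE 0.081, adjusted p = 5.02e-13, limma), which left 23.1% of the DMSO mean. The other small subunit gene, RNR2A (AT3G23580), had 21.9, 19.8 and 23.4 RPM with DEX and 20.4, 23.3 and 20.9 RPM with DMSO (0.01, 95% interval -0.23 to 0.25, adjusted p = 0.953, limma). Its groups overlapped fully. Per kb of exon, TSO2 was the most abundant member in both groups, at 37.2 RPM with DEX and 161 RPM with DMSO, where RNR2A had 12.8 RPM with DEX and 12.7 RPM with DMSO.

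The regulators had the smallest median change of the role groups, -0.32, and 3 of 6 fell, against 28.1% of all listed genes. E2FA (AT2G36010), an activating E2F, had 8.22, 4.91 and 5.18 RPM with DEX and 16.5, 18.5 and 21.9 RPM with DMSO (-1.51, SE 0.18, adjusted p = 1.24e-06, limma). DEX-1 was the highest DEX library, and the groups did not overlap. RBR1 (AT3G12280), the retinoblastoma-related repressor of E2F, had 29.7, 25.5 and 24.3 RPM with DEX and 54.1, 61.9 and 60.8 RPM with DMSO (-1.13, SE 0.099, adjusted p = 3.64e-08, limma). E2FC (AT1G47870), the E2F described as a repressor, had 5.51, 7.88 and 6.09 RPM with DEX and 9.73, 9.53 and 9.72 RPM with DMSO (-0.52, adjusted p = 0.0114, limma). Its DEX libraries all lay below the closely grouped DMSO libraries, and without DEX-1 the change was -0.43 with an adjusted p of 0.0510 (limma).

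E2FB (AT5G22220), the other activating E2F, had 6.17, 6.63 and 7.84 RPM with DEX and 7.48, 7.62 and 7.35 RPM with DMSO (-0.11, 95% interval -0.45 to 0.23, adjusted p = 0.571, limma). The dimerisation partners did not pass either. DPA (AT5G02470) had 11.5, 8.15 and 5.67 RPM with DEX and 6.92, 9.09 and 10.3 RPM with DMSO (-0.08, 95% interval -0.52 to 0.36, adjusted p = 0.754, limma). DPB (AT5G03415) had 19.2, 23.3 and 18.2 RPM with DEX and 20.4, 21.2 and 22.5 RPM with DMSO (-0.08, 95% interval -0.33 to 0.17, adjusted p = 0.583, limma). In all 3 genes the DEX and DMSO values overlapped, and DPA was the most scattered, its DEX libraries reaching both above and below the DMSO range.

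CAF-1 places histones on newly made DNA. FAS1 (AT1G65470), its large subunit, had 4.58, 3.59 and 3.36 RPM with DEX and 9.17, 8.28 and 10.3 RPM with DMSO (-1.08, SE 0.17, adjusted p = 4.46e-05, limma), with no overlap. FAS2 (AT5G64630), its middle subunit, had 14.9, 16.7 and 13.2 RPM with DEX and 18.3, 20.08 and 16.6 RPM with DMSO (-0.28, 95% interval -0.56 to -0.01, adjusted p = 0.0726, limma). The groups overlapped through DEX-2 and DMSO-3, and the gene passed the test without DEX-2 (-0.36, adjusted p = 0.0465, limma).

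Whether related or partner genes changed by unequal amounts was tested on the log2(RPM + 1) ratio of the pair in each library, with an exact two-sided permutation test over the 6 libraries, for 10 pairs. With 3 libraries against 3 the smallest possible p is 0.10, so no pair could pass 0.05. TSO2 over RNR2A had a mean log2 ratio of 1.49 ± 0.19 with DEX and 3.60 ± 0.14 with DMSO (SD, n = 3 each), a difference of -2.12 (exact permutation p = 0.10, adjusted over the pairs 0.143). E2FA over E2FB had -0.17 ± 0.47 with DEX and 1.22 ± 0.21 with DMSO (SD, n = 3 each), a difference of -1.40 (exact permutation p = 0.10, adjusted 0.143). CDT1A over CDT1B had 0.23 ± 0.17 with DEX and 1.502 ± 0.42 with DMSO (SD, n = 3 each), a difference of -1.27 (exact permutation p = 0.10, adjusted 0.143). In these 3 pairs the first gene exceeded its relative clearly in DMSO libraries and much less, or not at all, in DEX libraries.

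The same p of 0.10 and groups without overlap were found for E2FA over E2FC (difference -0.99), FAS1 over FAS2 (-0.80), PCNA1 over PCNA2 (-0.59) and E2FB over E2FC (0.41), by the exact permutation test. For PCNA1 over PCNA2 the mean log2 ratio was 0.33 ± 0.17 with DEX and 0.91 ± 0.11 with DMSO (SD, n = 3 each). The ratio of ORC1A to ORC1B overlapped between the groups (difference 0.79, exact permutation p = 0.20, adjusted 0.25), as did CDC6 over CDC6B (0.22, p = 0.90, adjusted 1) and DPA over DPB (-0.0018, p = 1, adjusted 1). These last pairs show only that no difference was detected with 3 libraries a group. The ratio of CDC6 to CDC6B also rests on few reads of CDC6B in DEX libraries. The coding sequences of the CDT1, E2F, DP and small subunit pairs were at most 67.9% identical, with shared runs of 18 bases or less. FAS1 and FAS2 were paired as partners in 1 complex, and their sequences were not compared.

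**Figure D3:**
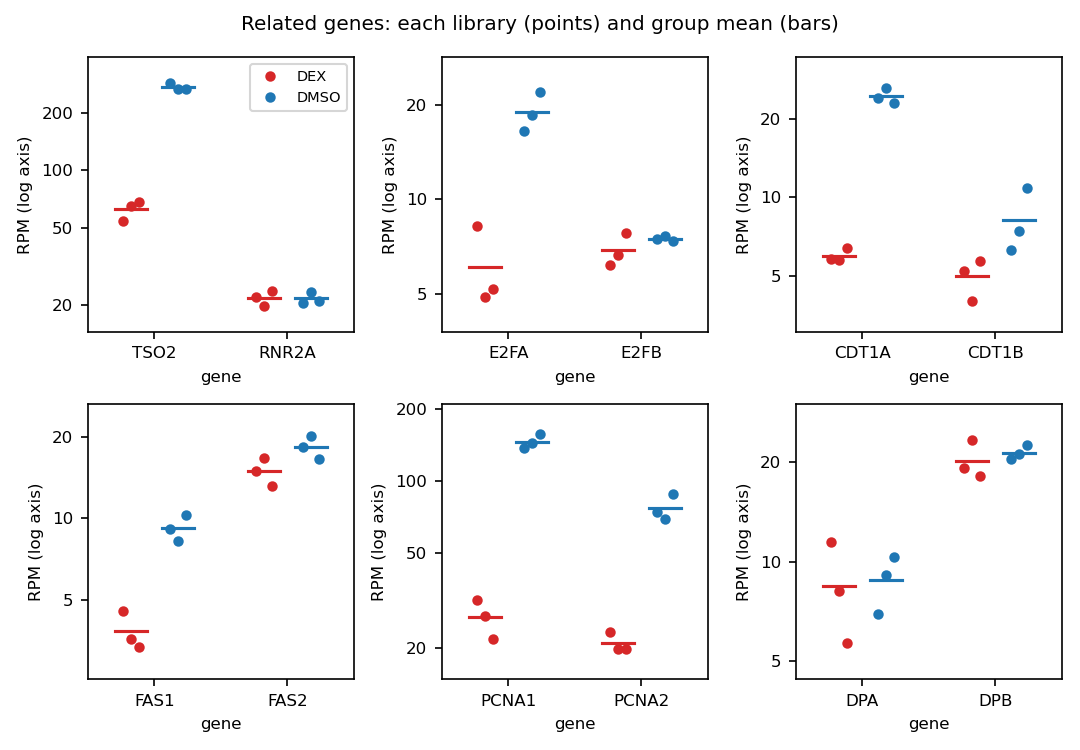
RPM on a log axis for 6 pairs of related or partner genes in the 3 DEX libraries (red) and the 3 DMSO libraries (blue), with group means as bars. TSO2, E2FA, CDT1A and FAS1 lie far lower with DEX while RNR2A, E2FB and FAS2 overlap between the groups, both PCNA genes lie lower, and neither DP gene separates.

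Replication genes outside the 42 were taken from a second list of 47 genes, of which 45 were measured and POLE1B and RPA2A were not analysed here. Of these 45, 35 fell, against 28.1% of all listed genes, and 10 did not pass, with a median log2 fold change of -0.76. None rose (0 higher with limma, 0 at an unadjusted p under 0.05, 0 with edgeR and 0 with DESeq2), against 29.6% of all genes. TSK, counted among the 35, reached 1 RPM in no DEX library. It is listed through the DMSO libraries alone, which favours a fall. RPA3A (AT3G52630), a small subunit of the single-strand binding protein, had 16.7, 14.7 and 15.9 RPM with DEX and 61.1, 72.4 and 72.0 RPM with DMSO (-2.05, adjusted p = 1.61e-11, limma). DUT1 (AT3G46940), the dUTPase that keeps uracil out of DNA, had 25.8, 24.5 and 26.5 RPM with DEX and 108, 101 and 113 RPM with DMSO (-2.03, adjusted p = 1.31e-12, limma). MET1 (AT5G49160), the methyltransferase that copies CG methylation after replication, had 14.5, 15.6 and 13.5 RPM with DEX and 63.2, 63.2 and 60.1 RPM with DMSO (-2.03, adjusted p = 1.13e-11, limma). None of these 3 had overlapping groups.

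ATXR6 (AT5G24330), a histone H3 methyltransferase that acts in replicating chromatin, had 4.76, 2.35 and 2.66 RPM with DEX and 18.1, 14.0 and 15.2 RPM with DMSO (-2.01, adjusted p = 1.61e-07, limma). RPA1D (AT5G61000), a large subunit of the single-strand binding protein, had 7.57, 7.88 and 5.04 RPM with DEX and 30.2, 24.0 and 35.8 RPM with DMSO (-1.99, adjusted p = 2.34e-08, limma). Both were lower in every DEX library than in any DMSO library. All 5 nucleotide supply genes fell, as did 5 of 6 clamp loader genes, 3 of 5 GINS genes and 3 of 4 measured primase and polymerase subunits. Among 8 measured single-strand binding genes 6 fell, as did 6 of 7 fork protein genes and 6 of 7 chromatin replication genes. These counts stand against 28.1% of all listed genes that were lower. Of the 3 atypical E2F genes only DEL1 fell, a share of 33.3% that is near the 28.1% of all listed genes. DEL2 and DEL3 had log2 fold changes of -0.01 and -0.43 and did not pass, DEL3 passing without DEX-2 (-0.56, adjusted p = 0.0494, limma). The E2F spellings were found in the windows of 11 of 47 genes of this list (23.4%).

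Genes of mitosis had smaller changes in their median. Of 19 mitosis genes 13 fell, 1 rose and 5 did not pass, with a median of -0.40. Of all listed genes 28.1% were lower and 29.6% higher. None of the 19 fell by 1 or more on the log2 scale, against 5.23% of all genes. CDKB1;1 (AT3G54180), a mitotic cyclin-dependent kinase, had 18.0, 15.9 and 14.6 RPM with DEX and 28.9, 30.9 and 31.1 RPM with DMSO (-0.87, adjusted p = 4.20e-06, limma), the largest fall of this list. CYCB2;4 (AT1G76310), a B-type cyclin, had 17.5, 18.6 and 17.8 RPM with DEX and 11.2, 13.7 and 15.9 RPM with DMSO (0.39, adjusted p = 0.0213, limma), and the call was lost without DEX-2 (0.37, adjusted p = 0.064, limma) and without DMSO-1 (0.27, adjusted p = 0.123, limma). None of the 19 windows held an E2F spelling. Only 1.94% of listed genes did, too few for a list of 19 to show a lack. The difference between the replication and mitosis lists was not tested as such.

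Histone genes are transcribed in S phase. Of 13 genes for histones H3.1 and H4, 12 fell, against 28.1% of all listed genes, with a median of -1.28. Of the 5 H3.1 genes 4 fell, with a median of -1.77, and all 8 H4 genes fell, with a median of -0.93. The H3.1 gene AT3G27360 (-0.30) did not pass except without DEX-3 (-0.59, adjusted p = 0.00138, limma). This gene shares 328 exon bases with a neighbour on the same strand, so part of its reads may belong to the neighbour. The largest fall was that of AT5G10390, also an H3.1 gene, with 26.6, 30.1 and 32.5 RPM with DEX and 116, 129 and 137 RPM with DMSO (-2.06, adjusted p = 3.63e-12, limma). The groups were far apart, but the sequences of the histone genes were not compared, and how reads were divided between alike copies in counting is uncertain.

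**Figure D4:**
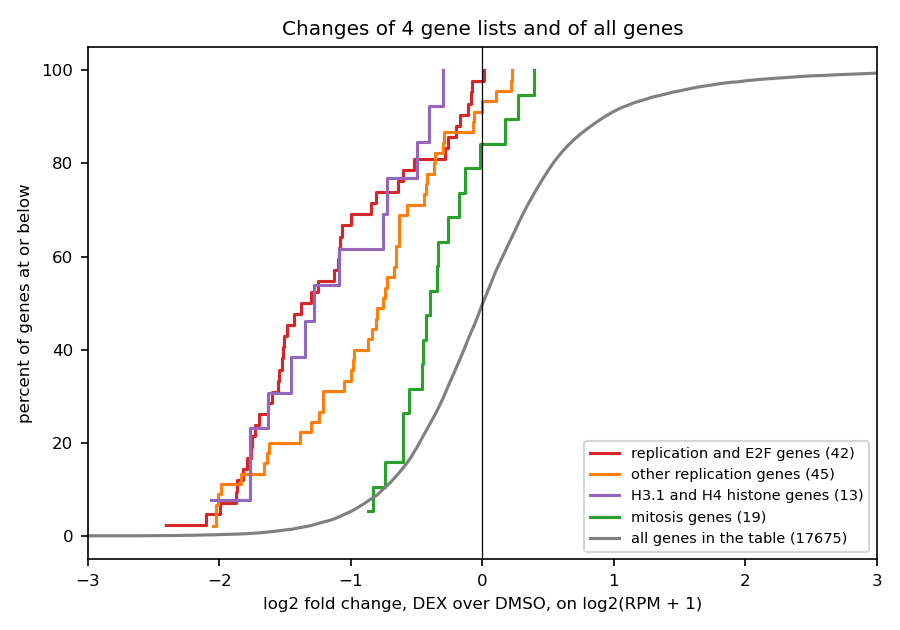
Cumulative percent of genes (y axis) at or below a log2 fold change of DEX over DMSO (x axis) for the 42 members, 45 other replication genes, 13 histone genes, 19 mitosis genes and all 17675 genes. The members and the histone genes lie farthest to the left, with medians of -1.34 and -1.28, then the other replication genes at -0.76 and the mitosis genes at -0.40, and all genes centre at 0.0035.

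Levels per length put the changes in order of abundance. Per kb of RefSeq exon, the mean level of TSO2 was 37.2 RPM with DEX and 161 RPM with DMSO, and that of PCNA1 was 23.9 RPM with DEX and 129 RPM with DMSO. PCNA2 followed with 17.8 RPM with DEX and 65.3 RPM with DMSO, and RNR1 with 12.9 RPM with DEX and 44.7 RPM with DMSO. The next in DMSO libraries were MCM7 and MCM4, so the most abundant members were all genes that fell. With DEX, POLD2 (16.3 RPM per kb) and RNR2A (12.8 RPM per kb), which changed little or did not pass, came close to PCNA2 and RNR1. At the other end, ORC1A had the lowest level with DMSO, 0.616 RPM per kb. With DEX it had 0.254 RPM per kb, and CDC6B (0.122 RPM per kb) and POLE1 (0.166 RPM per kb) were lower still. Few reads back each value of ORC1A.

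Some members share exon bases with a neighbouring gene. Of the 17 members whose exons overlap another annotated gene 14 fell, with a median of -1.25, and of the 25 without overlap 20 fell, with a median of -1.44.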

How the data were processed

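Gene levels of 6 inflorescence libraries, 3 DEX and 3 DMSO, were analysed, and groups were taken from the labels. The authors deposited RPM values for 17675 genes, made with TopHat and HTSeq per the submitters' processing notes. Tool versions, build, annotation and strand use are not stated in the sources used here. Each listed gene reaches 1 RPM in 3 libraries or more, and weaker genes were not analysed here. Whole reads could be recovered from the RPM steps: 100% of values came out whole within 0.01 reads. Read floors cover counting error only, and the 95% intervals are limma's, from the spread between libraries.

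Log2(RPM + 1) was tested with limma 3.58.1 (intensity trend, two-sided) in R 4.3.3, with Benjamini-Hochberg adjustment over all genes. edgeR 4.0.16 and DESeq2 1.42.0 were run on recovered reads as alternatives. The replicate numbers did not pair the libraries. Gene starts, exon lengths and promoter sequence came from RefSeq TAIR10.1, whose coordinates need not be those of the authors' build. The fit was checked on simulated counts. The members, the gene lists and the tests were chosen with earlier results of these data known. All members were accounted for. Values per library were given, in each role, for up to 3 called members of largest change and for every member that did not pass or belongs to a pair. They were also given for the 5 other replication genes of largest change and for the largest change in each direction of the mitosis and histone genes. Genes named beyond this were chosen after their values were seen.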

Additional observations from a re-analysis of the deposited data

How the results depend on the processing

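Counts of members lower in DEX were 34 under other pseudocounts, both scalings, no trend, robust moderation, edgeR and DESeq2, 30 of 37 at a minimum of 5 RPM, which some members (ORC2 and ORC3, for example) meet through the DMSO libraries alone, so that this count says little about stability, and 28 at a log2 change of at least 1. Leaving out a library gave 32 to 35. The median of the members was -1.63 at a pseudocount of 0.1 RPM, -0.82 at 5 RPM and -1.65 with edgeR and with DESeq2, so the size of the change depends on the scale. With a replicate block 34 members were lower, and the block changed no call of a member; same-numbered libraries had deviation correlations of -0.05, 0.06 and 0.03. Dropping the minimum repeated the main fit, since every listed gene already met it. The minimum of 5 RPM, no trend, robust moderation and the replicate block kept each log2 fold change, so direction could not change there. With these settings counted in, 457 of 457 of the members' values under other settings kept direction and call. When 1 library was left out, 237 of 252 did, 7 lost the call (CDT1B, POLD2, E2FC), 3 gained it (ORC1A, FAS2) and 5 changed sign: RNR2A was -0.05 without DEX-3, -0.03 without DMSO-1 and -0.01 without DMSO-3, and DPA was 0.14 without DEX-3 and 0.03 without DMSO-3, within ranges of -0.05 to 0.07 and -0.31 to 0.14. Neither had passed the test.

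Other replication genes lower by at least 1 numbered 15, and 0 to 1 of that list was higher without a library (ASF1A without DEX-2). Mitosis genes higher numbered 2 without the trend, 0 at a log2 change of at least 1 and 0 to 1 without a library, and 0 mitosis genes were lower by at least 1. The difference of CDC6 over CDC6B ranged from -0.11 to 0.46 without a library. That of DPA over DPB was 0.02 at a pseudocount of 5 RPM and -0.26 to 0.16 without a library. The cause of these shifts was not tested. With 3 libraries a group, changes of the size seen for FAS2 or POLD2 lie near what the spread allows to be called, and CDC6B and ORC1A rest on few reads.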
